A study of Mus musculus with 6 samples.

Results

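The medium and long chain acyl-CoA synthetases of the mouse, Acsm1 to Acsm5 and Acsl1, Acsl3, Acsl4, Acsl5 and Acsl6, were followed through the whole-epididymis transcriptomes of WT and Ocln-KO mice. These are 10 of the 57127 genes listed in the count table, and were taken by their symbols. They were chosen by the log2 fold change of Acsm2 between Ocln-KO and WT, since Acsm2 was the gene ranked 4 among the falls of all 19691 genes tested, so the fall of Acsm2 is a description here and not a finding, and no p-value is given for any of the 10. WT samples came from adult wild-type C57BL/6 mice and Ocln-KO samples from adult mice of the same strain label with a constitutive knockout (Ocln-/-), not limited to the epididymis, of the gene for the tight junction protein occludin. Knockout males are sterile, and the knockout animals were bred from heterozygous parents. No agent was given to either genotype. Each genotype had 3 libraries of whole-epididymis RNA, and whether each library held the RNA of a single mouse was not stated outright. The paper describes 3 pairs of WT and Ocln-KO mice, which libraries were paired was not stated, and the main test used no pairs. In bulk RNA of this kind, fewer cells of a type and less RNA per cell cannot be told apart.

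A fatty acid must be activated before a cell can oxidise it, build it into lipid or join it to another compound. Acyl-CoA synthetases do this at the cost of ATP: the fatty acid is first joined to AMP, and the acyl group is then passed to coenzyme A. The ACSM enzymes lie in the mitochondrial matrix and act on medium-chain fatty acids and on acids such as benzoate, which are then conjugated with glycine, a role best known in liver and kidney. The ACSL enzymes are bound to membranes and act on long-chain fatty acids, ACSL1 feeding oxidation and triglyceride synthesis depending on the tissue and ACSL4 preferring arachidonate and other polyunsaturated acids.

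All 5 Acsm genes lay on the plus strand of chromosome 7 (GRCm38) within 268 kb, in the order Acsm5, Acsm2, Acsm1, Acsm4, Acsm3. Acsm2 (ENSMUSG00000030945) spanned chr7:119554340-119600694. The Acsl genes were dispersed, with Acsl1 at chr8:46471037-46536051, Acsl3 at chr1:78657825-78707743, Acsl5 at chr19:55251861-55296628 and Acsl6 at chr11:54303805-54364756 on the plus strand and Acsl4 at chrX:142317993-142390802 on the minus strand. The coding sequences of the Acsm genes are similar but not interchangeable for read counting, and the most conserved stretch of 60 coding bases is shown for all 5, from the GENCODE M21 transcripts, with capitals for the 38 positions at which all 5 have the same base. The stretch crosses an exon junction in each gene, exons 12 and 13 in Acsm1, Acsm2, Acsm4 and Acsm5 and exons 13 and 14 in Acsm3, so that in the genome that of Acsm2 runs from chr7:119591325-119592244 and that of Acsm3 from chr7:119781030-119783871.
Acsm1: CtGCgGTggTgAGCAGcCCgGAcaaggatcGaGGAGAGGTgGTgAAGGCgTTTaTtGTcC
Acsm2: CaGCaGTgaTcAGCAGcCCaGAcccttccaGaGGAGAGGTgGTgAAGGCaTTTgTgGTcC
Acsm3: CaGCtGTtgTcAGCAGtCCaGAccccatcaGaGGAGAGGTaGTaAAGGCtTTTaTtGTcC
Acsm4: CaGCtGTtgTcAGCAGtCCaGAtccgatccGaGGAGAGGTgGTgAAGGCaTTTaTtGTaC
Acsm5: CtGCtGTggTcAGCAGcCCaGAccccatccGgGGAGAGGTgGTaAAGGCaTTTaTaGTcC
Even this stretch differed between any pair, and over the whole coding sequence 2 Acsm genes were 60.4% to 66.4% identical. On the same measure an Acsm and an Acsl gene were 55.4% to 58.8% identical. No run of 50 bases was shared between the annotated transcripts of any 2 of the 10 genes. Acsm2, Acsm4 and Acsl4 overlapped no other annotated gene. In GENCODE M21 exons of Acsm3 overlapped Eri2, exons of Acsm5 overlapped Pdilt and exons of Acsl5 overlapped Zdhhc6, all on the opposite strand. Exons of Acsm1, Acsl1 and Acsl6 overlapped Gm19950, Gm45244 and Gm12224, also on the opposite strand. Exons of Acsl3 overlapped the protein-coding Utp14b on the same strand, which a strand setting does not separate. The strand setting of the counting was not stated.

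The sequences before the transcription starts are shown because the detected Acsm genes and the first starts of Acsl1, Acsl3 and Acsl4 differed in their content of the dinucleotide CG. The 250 bases before the RefSeq start (GRCm38.p6) are shown for 5 genes, read 5′ to 3′ on the strand of the gene, with CG and the letters TATAAA in capitals. They lie at chr7:119554090-119554339 for Acsm2 (the first of its starts), chr7:119760673-119760922 for Acsm3, chr7:119526015-119526264 for Acsm5 and chr8:46470787-46471036 for Acsl1 (the first of its starts), all on the plus strand, and at chrX:142390536-142390785 for Acsl4 on the minus strand.
Acsm2: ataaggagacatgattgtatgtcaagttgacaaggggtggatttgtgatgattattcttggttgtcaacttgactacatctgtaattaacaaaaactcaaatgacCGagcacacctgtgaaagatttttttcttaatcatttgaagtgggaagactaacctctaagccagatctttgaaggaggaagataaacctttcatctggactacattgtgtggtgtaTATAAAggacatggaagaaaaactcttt
Acsm3: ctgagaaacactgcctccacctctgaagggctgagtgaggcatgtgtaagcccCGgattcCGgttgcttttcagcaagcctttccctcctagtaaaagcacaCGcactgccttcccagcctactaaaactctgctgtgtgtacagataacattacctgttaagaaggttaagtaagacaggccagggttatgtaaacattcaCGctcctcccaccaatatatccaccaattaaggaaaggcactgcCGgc
Acsm5: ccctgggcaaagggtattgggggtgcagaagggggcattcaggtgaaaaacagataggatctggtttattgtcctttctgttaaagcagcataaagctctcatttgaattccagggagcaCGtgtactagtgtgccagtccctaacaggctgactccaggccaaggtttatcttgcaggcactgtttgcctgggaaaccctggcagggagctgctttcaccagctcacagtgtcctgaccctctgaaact
Acsl1: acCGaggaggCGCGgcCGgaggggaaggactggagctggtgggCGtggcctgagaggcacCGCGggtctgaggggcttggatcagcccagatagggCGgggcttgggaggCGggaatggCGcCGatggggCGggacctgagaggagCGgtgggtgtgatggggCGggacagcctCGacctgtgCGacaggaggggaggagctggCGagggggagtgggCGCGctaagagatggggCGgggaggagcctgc
Acsl4: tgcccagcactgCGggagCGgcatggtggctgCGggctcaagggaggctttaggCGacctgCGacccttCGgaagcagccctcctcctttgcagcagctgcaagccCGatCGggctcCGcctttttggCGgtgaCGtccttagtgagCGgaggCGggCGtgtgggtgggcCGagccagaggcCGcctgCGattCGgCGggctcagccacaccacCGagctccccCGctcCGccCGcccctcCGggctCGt
In windows of 300 bases that also hold the 50 bases after the start, the 6 Acsm promoters listed had 1 to 7 CG, where the median of all 32841 mouse promoters was 7. The window of Acsm2 shown here had 1 CG, and 5.4% of all promoters had fewer. Acsl3 and Acsl4 each had 33 and Acsl1 had 30, more than 91.4%, 91.4% and 88.3% of promoters, while the second start of Acsl1 had 4. Acsl5 had 9, and the 3 starts of Acsl6 had 5, 36 and 1. The letters TATAAA, searched on both strands, were found in the windows of 13.6% of promoters and, among the members, in that of Acsm2. The nuclear receptor core letters AGGTCA were in the windows of Acsm1 and Acsl6 and in 16.3% of all, and a spaced direct repeat of them, the PPAR element, was in no member window and in 0.0396% of all. These matches describe letters in a window, and occupancy was not measured.

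The libraries held 30646424 to 38870780 assigned counts, and 1 count was worth 0.0267 to 0.0314 CPM (counts per 1000000 counts of the library after scaling with TMM factors). Ocln itself was 85.4 ± 6.50 CPM in WT (SD, n = 3) and 15.1 ± 0.231 CPM in Ocln-KO, in the direction of the labels. The extraction field of the sample labels names prefrontal cortex, whereas their tissue field names whole epididymis. The summed neuronal markers were 19.1 to 25.1 CPM in WT against 18.4 to 22.4 CPM in Ocln-KO, and those of the proximal epididymis 6001 to 8512 CPM and 5069 to 9299 CPM. Of these lists, 5 of the 6 neuronal genes but only 3 of the 7 proximal epididymis genes had enough counts to be tested. Ocln-KO replicate 3 stood apart on the first principal component, at 86.3 against 17.7 and 29.1 for the other Ocln-KO libraries and −52.8 to −37.0 for WT. It also had the lowest sum of the 9 spermatid and sperm markers, 105 CPM against 319 to 463 CPM in the other 5 libraries, and the highest sum of the 10 macrophage markers, 422 CPM against 177 to 268 CPM. Gapdh, a gene that every cell uses and that was chosen after its values were seen, was at only 9.91 ± 1.46 CPM in WT, so a low count in this table need not mean a low transcript level, and the cause was not tested.

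In WT epididymis the long-chain family was by far the larger of the families in counts. The 5 Acsl genes summed to 1253 ± 29.8 CPM (SD, n = 3) and the 5 Acsm genes to 4.03 ± 1.36 CPM. Levels of different genes were compared per kb of annotated exon. On that scale Acsl4 led with 95.2 ± 2.05 CPM per kb, followed by Acsl1 with 57.7 ± 1.55, Acsl5 with 19.7 ± 1.45 and Acsl3 with 8.48 ± 0.394, and each of these stood above the next in all 3 libraries. Acsm2 followed with 0.363 ± 0.186 and Acsm3 with 0.201 ± 0.0196, and the libraries of this pair overlapped. Acsm5 with 0.0920 ± 0.00673 and Acsl6 with 0.0836 ± 0.0211 could not be ordered either. The order of the leading pair depended on which length was used, since the annotated exons of Acsl1 add up to 10.48 kb and its longest protein-coding transcript has 3.90 kb: per kb of the longest protein-coding transcript, a scale chosen after the data were seen, Acsl1 was at 155 ± 4.17 CPM per kb and Acsl4 at 97.4 ± 2.09. Acsm1 and Acsm4 had no count in any of the 6 libraries, which allows each up to 0.0801 to 0.0941 CPM in a library.

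Of the 10 members, 8 had enough counts to be tested. The 3 Acsm genes among them passed the count filter through their WT libraries. One of the 8, Acsm2, was called lower in Ocln-KO and 0 were called higher, by edgeR's quasi-likelihood test with a threshold of 0.05 on the adjusted p, where 8.95% of all tested genes were called in either direction (5.04% lower and 3.91% higher). Among the other 7, edgeR called 0 and DESeq2 called 1, Acsm3, and at an unadjusted p under 0.05 edgeR had 3 lower and 1 higher. All 3 Ocln-KO libraries lay below all 3 WT libraries for 5 of the 8 tested members and above them for 1, where 19.4% of all tested genes lay below, 16.9% above and 36.3% in either way without overlap. The 5 include Acsl3 and Acsl4, whose genotypes overlapped with total counts alone as the scaling. Acsm2 chose the set, and the filter let the scarce Acsm genes in through WT, so nothing is read from these shares.

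**Figure D1:**
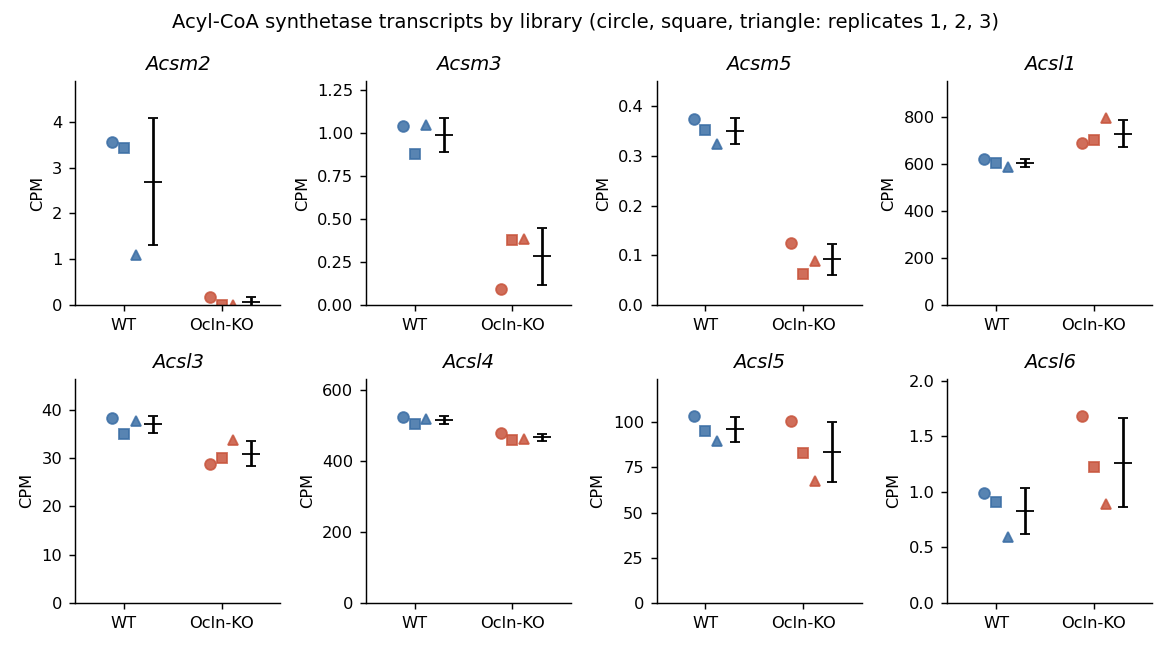
Levels in CPM (linear axes from 0) of the 8 members that were tested, with a point for each library of WT (blue) and Ocln-KO (red) and black bars for the mean ± SD of 3 libraries. On this scaling the genotypes do not overlap for Acsm2, Acsm3, Acsm5, Acsl3 and Acsl4, which are lower in Ocln-KO, or for Acsl1, which is higher, and they overlap for Acsl5 and Acsl6.

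Acsm2, which encodes a mitochondrial medium-chain synthetase abundant in kidney, gave 3.55, 3.43 and 1.10 CPM in WT replicates 1, 2 and 3 and 0.187, 0 and 0 CPM in Ocln-KO replicates 1, 2 and 3. The counts behind these values were 133, 117 and 41 in WT and 6, 0 and 0 in Ocln-KO. WT replicate 3 was thus well below the other WT libraries, and every WT library was above every Ocln-KO library. The WT mean was 14.4-fold the level of Ocln-KO replicate 1 and, taking 3 counts as the limit where none was seen, at least 28.6-fold higher than Ocln-KO replicate 2 and at least 30.4-fold higher than Ocln-KO replicate 3. The fitted log2 fold change was −5.37 ± 1.01 (SE). It was −9.55 without Ocln-KO replicate 1, when both remaining Ocln-KO libraries had no count and the fitted value depends on the prior count. It was below 0 in each of the 12 alternatives that gave a value, of which 7 called Acsm2, and a filter of 10 counts in every library left it untested. Acsm2 was no longer called when WT replicate 1, WT replicate 2, WT replicate 3 or Ocln-KO replicate 2 was left out. Calls over all genes fell with these libraries too, from 992 lower and 770 higher. They were 19 and 4 without WT replicate 1, 145 and 85 without WT replicate 2 and 40 and 16 without WT replicate 3. Without Ocln-KO replicate 2 they were 342 and 220.

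Acsm3, the cluster's distal member and also a mitochondrial medium-chain synthetase, gave 1.04, 0.878 and 1.05 CPM in WT against 0.0934, 0.376 and 0.384 CPM in Ocln-KO. The highest Ocln-KO library stood at less than the lowest WT library, and Ocln-KO replicate 1, the library in which Acsm2 was still seen, had the lowest Acsm3. The log2 fold change was −1.78 ± 0.55, on 108 counts in WT and 28 in Ocln-KO. Acsm5 gave 0.374, 0.351 and 0.323 CPM in WT against 0.125, 0.0627 and 0.0887 CPM in Ocln-KO, a log2 fold change of −1.88 ± 0.56 on 38 and 9 counts. Its WT libraries lay close together and its Ocln-KO libraries all lay below them. Acsm3 and Acsm5 were not called by edgeR, and each rested on at most 39 counts in a library. Eri2, the antisense partner of Acsm3, was 14.0 ± 0.224 CPM in WT against 15.1 ± 1.22 CPM in Ocln-KO. Pdilt, which the GENCODE M21 form of Acsm5 overlaps on the opposite strand, was 0.239 ± 0.178 CPM and 0.310 ± 0.166 CPM. The RefSeq form of Acsm5 starts at 119526131, past the GENCODE end of Pdilt at 119523489.

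Summed over the family, the Acsm genes gave 4.97, 4.66 and 2.48 CPM in WT against 0.405, 0.439 and 0.473 CPM in Ocln-KO. The ratio of the means was 9.19, which holds the fall that chose the set. Without Acsm2, a sum added after the data were seen, the values were 1.42, 1.23 and 1.37 CPM in WT against 0.218, 0.439 and 0.473 CPM in Ocln-KO, and the ratio of the means was 3.55. Acsm2 was the largest part of the sum in WT, at 71.5%, 73.6% and 44.6% of the Acsm counts, and Acsm3 was the largest in Ocln-KO replicates 2 and 3, at 85.7% and 81.2%. Beside the fall of Acsm2, fixed by the choice, Acsm3 and Acsm5 both had a log2 fold change below 0, as did 49.1% of all tested genes. Both passed the count filter through WT, with 30 to 39 counts a library for Acsm3 and 12 to 14 for Acsm5. A scarce gene that enters in this way leans to a fall, so nothing is read from these 2 signs.

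**Figure D2:**
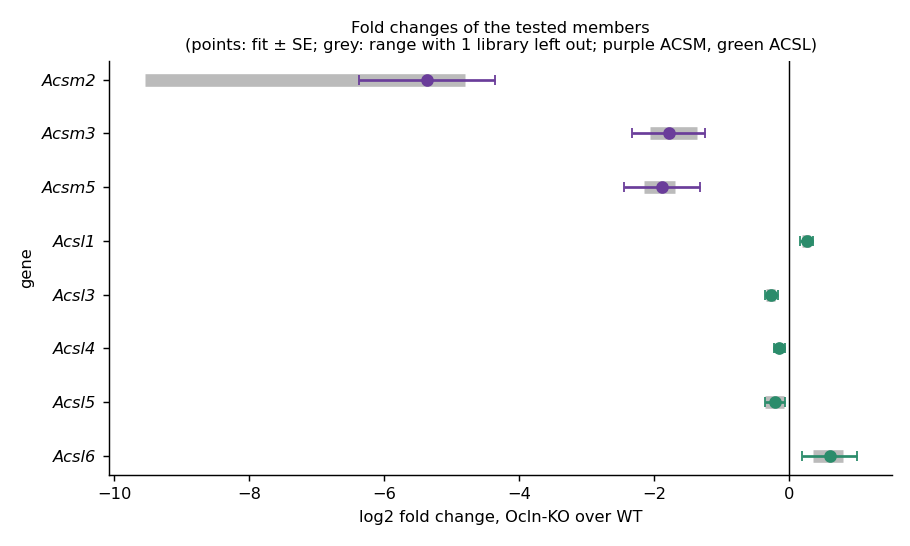
Log2 fold change (Ocln-KO over WT) of the 8 tested members, as the fitted value ± SE (points and bars, ACSM purple and ACSL green) with the range of the fitted values when 1 library is left out (grey). The 3 ACSM genes lie at −1.78 or below and the 5 ACSL genes between −0.26 and 0.61, and the grey bar of Acsm2 reaches −9.55 because the Ocln-KO libraries left are then at 0.

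Whether the genes between and around the Acsm genes differed too was examined next. GENCODE M21 lists 30 other genes that overlap the cluster or lie within 500 kb of it, a distance chosen after the data were seen, and 9 of them were tested. None was called by edgeR in either direction, DESeq2 called 1, and 2 had an unadjusted p under 0.05 by edgeR. Their log2 fold changes ran from −0.52 to 0.65 with a median of −0.02. Thumpd1, which lies between Acsm4 and Acsm3 and encodes a tRNA acetylation cofactor, was 49.0 ± 2.28 CPM in WT against 46.2 ± 2.64 CPM in Ocln-KO, with a log2 fold change of −0.09 ± 0.09 and an adjusted p of 0.563. Eri2 had a log2 fold change of 0.11 ± 0.12 and an adjusted p of 0.574. Lyrm1 had the highest value of the 9, 0.65 ± 0.18, at an adjusted p of 0.0633.

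**Figure D3:**
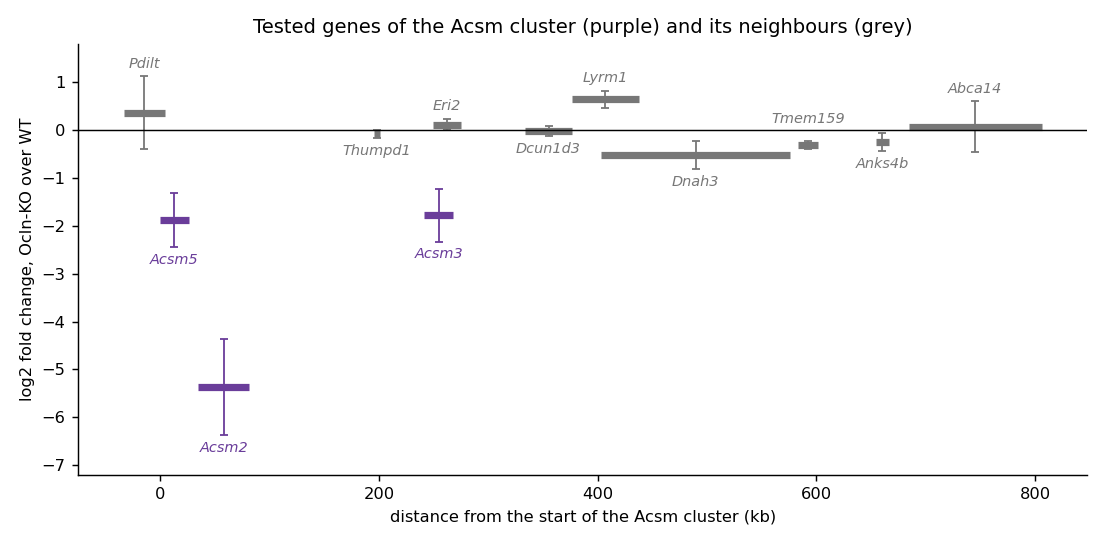
Log2 fold change (Ocln-KO over WT, vertical bars ± SE) of the tested genes in and around the Acsm cluster against the distance from the start of the cluster in kb, with each horizontal bar spanning the gene. The 3 Acsm genes (purple) lie at −1.78 or below, and the 9 neighbours (grey) between −0.52 and 0.65.

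Among the long-chain synthetases, Acsl1 was higher in Ocln-KO and Acsl4 and Acsl3 were lower, none by enough to be called. Acsl1 gave 620, 606 and 588 CPM in WT against 688, 699.9 and 793 CPM in Ocln-KO, means of 605 ± 16.2 and 727 ± 57.5. Every Ocln-KO library was above every WT library, and Ocln-KO replicate 3, which had the highest macrophage markers, was the highest. The log2 fold change was 0.27 ± 0.10, and leaving out Ocln-KO replicate 3 gave the lowest of the leave-one-out values, which ran from 0.20 to 0.31. Leaving out the highest Ocln-KO library lowers the value whatever that library holds. The part of its makeup in the Acsl1 difference was not tested.

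Acsl4, the arachidonate-preferring member, gave 524, 502 and 517 CPM in WT against 477, 458 and 462 CPM in Ocln-KO. Its libraries were tight within each genotype and did not overlap, and the log2 fold change was −0.14 ± 0.08. With total counts alone as the scaling, which moved the median of all genes from 0.01 to 0.09, it was −0.06. On that scaling Acsl4 was higher in Ocln-KO replicate 1 than in WT replicate 2, so its genotypes overlapped. Acsl3, found on the endoplasmic reticulum and on lipid droplets, gave 38.2, 35.0 and 37.6 CPM in WT against 28.7, 30.1 and 33.8 CPM in Ocln-KO, a log2 fold change of −0.26 ± 0.10 with no overlap. The Ocln-KO value nearest to WT was that of replicate 3. With total counts alone as the scaling it lay above WT replicate 2, so Acsl3 overlapped as well. The part of Utp14b, which exons of Acsl3 overlap on the same strand, in the Acsl3 counts was not tested.

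Acsl5, which is associated with mitochondria and the endoplasmic reticulum, gave 103, 95.2 and 89.4 CPM in WT against 101, 82.8 and 67.5 CPM in Ocln-KO. Ocln-KO replicate 1 lay within the WT range and replicate 3 was the lowest of the 6, and the log2 fold change of −0.20 ± 0.15 ran from −0.35 to −0.07 when 1 library was left out. Acsl6, a form best known in brain and in male germ cells, gave 0.988, 0.908 and 0.592 CPM in WT against 1.68, 1.22 and 0.887 CPM in Ocln-KO. Its genotypes overlapped, and its log2 fold change was 0.61 ± 0.40. Within Ocln-KO it was lowest in replicate 3, the library with the lowest sperm markers. The part of sperm content in the Acsl6 values was not tested.

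The balance of Acsl1 and Acsl4 does not depend on how the libraries are scaled, since both counts come from the same library. There were 1.18, 1.21 and 1.14 Acsl1 counts for each Acsl4 count in WT and 1.44, 1.53 and 1.72 in Ocln-KO, means of 1.18 ± 0.0349 and 1.56 ± 0.140. The ratio was higher in every Ocln-KO library than in any WT library. This follows from the values above, where Acsl1 was higher and Acsl4 lower without overlap, and is not a further result. Acsl1 made up 48.3 ± 0.590% of the Acsl counts in WT and 55.5 ± 2.71% in Ocln-KO, and Acsl4 made up 41.1 ± 0.765% and 35.6 ± 1.42%. The sum of the 5 genes was 1287, 1239 and 1232 CPM in WT against 1296, 1272 and 1357 CPM in Ocln-KO, a log2 ratio of the means of 0.06, and the genotypes overlapped. This sum does depend on the scaling. With total counts alone the log2 ratio was 0.15, and every Ocln-KO library was above every WT library. With 3 libraries a genotype, an exact permutation test of a single ratio could not go below a p of 0.1 and was not run on members of a chosen set.

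**Figure D4:**
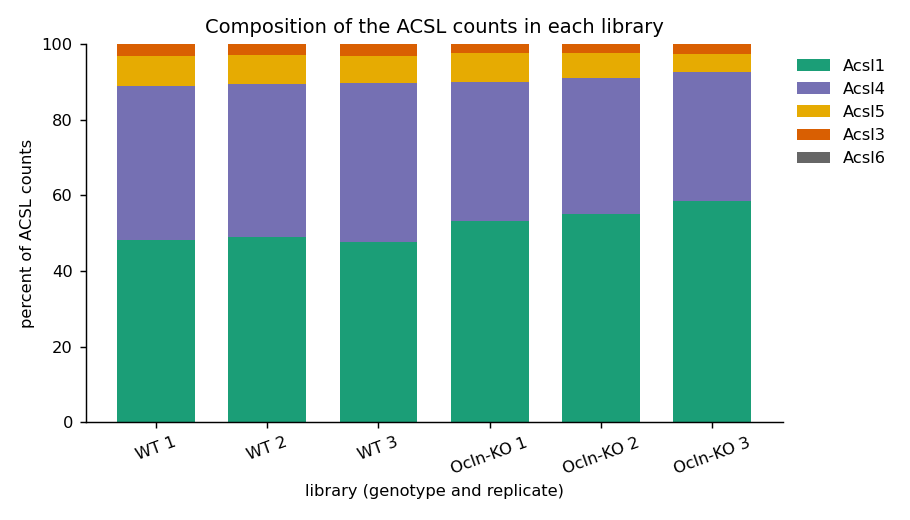
Share of each gene in the summed Acsl counts (percent, stacked to 100) in each of the 6 libraries. Acsl1 (bottom) takes 47.7% to 48.9% in WT and 53.1% to 58.4% in Ocln-KO, and Acsl4 above it 40.5% to 41.9% in WT and 34.0% to 36.8% in Ocln-KO; the Acsl6 share is too thin to be seen.

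The sums of clear cell and macrophage markers did not overlap between the genotypes, and those of adipocyte, sperm, neuron and proximal epididymis markers did. The macrophage markers were 177 to 204 CPM in WT against 209 to 422 CPM in Ocln-KO, and 0 of the 10 were called in either direction. The clear cell markers were 134 to 180 CPM in WT against 67.6 to 94.8 CPM in Ocln-KO, and 4 of the 6 were called lower. Adipocyte markers, of which 7 of 8 were tested, were 23.1 to 28.3 CPM in WT against 11.8 to 23.3 CPM in Ocln-KO, lowest in replicate 3. No marker of these lists was at 0 in all libraries, and the part of any of these cell types in the members' differences was not tested.

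The other genes of fatty acid activation and use were examined in lists set by function. The lists were drawn up with earlier results of these data known, so the shares that follow are a description and were not tested. Of 90 such genes 75 were tested, and edgeR called 10 lower and 4 higher in Ocln-KO, or 18.7% of them against 8.95% of all tested genes. Their median log2 fold change was −0.13, against 0.01 for all tested genes, and 51 of the 75 were below 0. The counts of calls moved when a library was left out: without WT replicate 1, 2 or 3 there were 0, 1 and 0 lower and 0, 0 and 0 higher, and without Ocln-KO replicate 1, 2 or 3 there were 9, 6 and 12 lower and 2, 1 and 2 higher. Calls over all genes also fell without WT replicate 1, 2 or 3, from 992 lower and 770 higher to 19 and 4, 145 and 85, and 40 and 16. The losses of calls given below for the lists are thus not particular to them. The adjusted p-values that follow are edgeR's, over all genes tested.

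Among the 13 tested synthetases of other chain lengths and kinds, 2 were lower and 1 was higher. Slc27a2, a very long-chain synthetase and fatty acid transporter abundant in kidney and liver, fell from 45.8, 45.3 and 27.1 CPM in WT to 9.44, 18.3 and 13.7 CPM in Ocln-KO (log2 fold change −1.51 ± 0.28, adjusted p = 0.0245). WT replicate 3 was the lowest WT library for Slc27a2, as it was for Acsm2. Acss2, the cytosolic acetyl-CoA synthetase, fell from 30.8 ± 2.26 to 15.2 ± 1.41 CPM (−1.02 ± 0.12, adjusted p = 0.00863). Acss3, a mitochondrial short-chain synthetase, rose from 7.04 ± 0.589 to 17.6 ± 8.69 CPM (1.32 ± 0.32, adjusted p = 0.0459), with 27.3 CPM in Ocln-KO replicate 3 against 10.5 and 15.1 CPM in replicates 1 and 2. Without WT replicate 1, 2 or 3 this list held 0, 1 and 0 lower and 0 higher genes, and the lower one was Acss2. The call of Acss3 was also lost with limma-voom and without Ocln-KO replicate 2, and leaving out Ocln-KO replicate 3 brought its log2 fold change to 0.86.

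The enzymes that cut acyl-CoA and the proteins that carry it held 1 call each. Of 12 thioesterases, edgeR called 0 lower, DESeq2 called 1 lower and 3 had an unadjusted p under 0.05 in that direction. Acot1, the cytosolic thioesterase induced through PPARα, rose from 10.5 ± 0.788 to 19.4 ± 5.56 CPM (log2 fold change 0.88 ± 0.21, adjusted p = 0.0428). Of 11 acyl-CoA and fatty acid binding genes, 1 was lower and edgeR called 0 higher, as did DESeq2, with 0 at an unadjusted p under 0.05. That gene was Acbd7, an acyl-CoA binding protein, which fell from 72.1 ± 9.45 to 23.0 ± 9.50 CPM (−1.65 ± 0.28, adjusted p = 0.0224). Without any 1 of the WT libraries, 0 of these genes were called. The call of Acot1 was also lost with limma-voom and on leaving out Ocln-KO replicate 1 or replicate 3, the latter giving a log2 fold change of 0.64.

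Of 18 genes of mitochondrial β-oxidation, 4 fell and 1 rose. Eci2, which moves double bonds of unsaturated acyl-CoA, fell from 54.1 ± 4.67 to 37.7 ± 3.02 CPM (log2 fold change −0.52 ± 0.10, adjusted p = 0.0287). Acaa2, the last thiolase step, fell from 52.3 ± 1.13 to 36.7 ± 4.94 CPM (−0.51 ± 0.11, adjusted p = 0.0350), and Hadh, the medium and short chain hydroxyacyl-CoA dehydrogenase, from 115 ± 5.85 to 83.4 ± 2.27 CPM (−0.47 ± 0.08, adjusted p = 0.0225). The remaining one was Eci1. Acadl, the long-chain acyl-CoA dehydrogenase, rose from 18.5 ± 2.88 to 28.3 ± 3.35 CPM (0.61 ± 0.15, adjusted p = 0.0453). Without any 1 of the WT libraries, 0 of the 18 were called. The calls of Eci2, Hadh and Acadl were also lost without Ocln-KO replicate 2, that of Acaa2 without replicate 1, and those of Acaa2 and Acadl without replicate 3.

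Of 14 peroxisomal genes, 2 fell and edgeR called 0 higher, as did DESeq2, with 1 higher at an unadjusted p under 0.05. Acox3, the oxidase that starts the breakdown of branched-chain acyl-CoA, gave 633, 651 and 714 CPM in WT against 393, 482 and 393 CPM in Ocln-KO (log2 fold change −0.66 ± 0.11, adjusted p = 0.0227), and Ehhadh, the bifunctional enzyme, fell from 34.5 ± 2.37 to 25.9 ± 1.83 CPM (−0.41 ± 0.10, adjusted p = 0.0448). Of the 4 glycine conjugation genes, which use the products of the ACSM enzymes, only Keg1 was tested, and it rose from 1.24 ± 0.231 to 3.32 ± 0.872 CPM (1.42 ± 0.32, adjusted p = 0.0370). Of 6 tested PPAR and RXR regulators, Ppargc1a, a coactivator of oxidative genes, fell from 9.19 ± 1.15 to 4.24 ± 1.30 CPM (−1.12 ± 0.26, adjusted p = 0.0400), and edgeR and DESeq2 each called 0 higher, with 0 at an unadjusted p under 0.05. Ppara, not called, was 6.60 ± 0.363 CPM in WT against 7.03 ± 1.35 CPM in Ocln-KO. Without any 1 of the WT libraries, 0 of the genes of these 3 lists were called. Ehhadh was also lost with total counts as the scaling, with no count filter and without Ocln-KO replicate 1 or 2, Keg1 without Ocln-KO replicate 1 or 2, and Ppargc1a without Ocln-KO replicate 2.

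**Figure D5:**
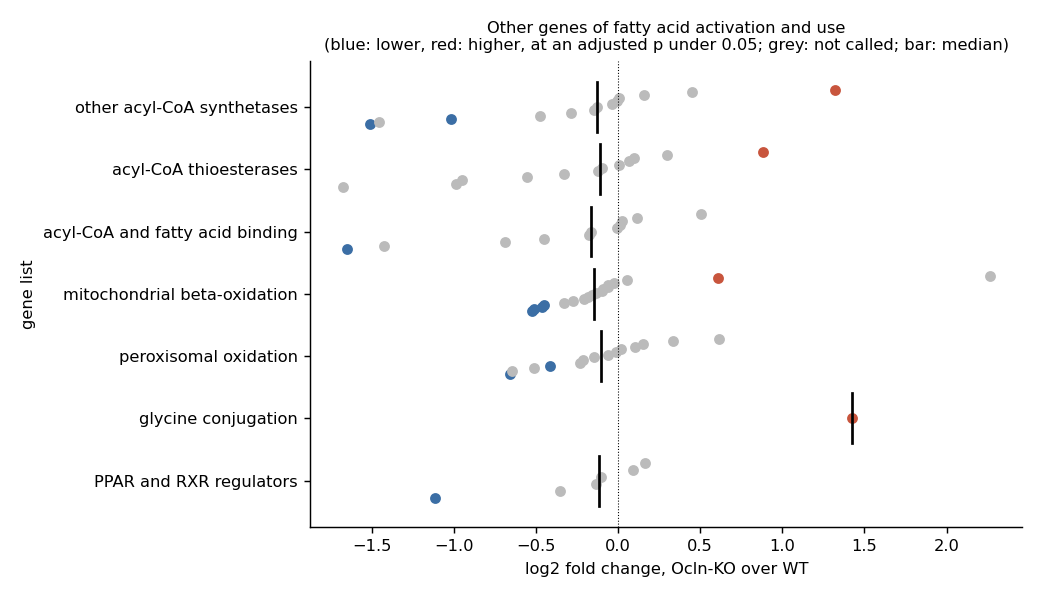
Log2 fold change (Ocln-KO over WT) of the 75 tested genes of fatty acid activation and use other than the members, by list, with genes called lower in blue, called higher in red and not called in grey, and a black bar at the median of each list. The 10 lower and 4 higher genes are spread over the lists, and list medians lie between −0.17 and −0.10 except for the single glycine conjugation gene at 1.42.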

How the data were processed

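Directional paired-end libraries were made from total RNA of whole epididymis after removal of rRNA. The authors aligned reads to GRCm38 with HISAT2 2.0.4, counted them per gene with HTSeq and deposited raw counts without normalization. The annotation, counting mode, strand setting and treatment of reads with several alignments are not given in the sources used here. Replicates are libraries, and p-values measure the spread between them. Of the listed symbols, 28 had become dates or numbers (0.145% of counts), 2 of them repeated, and 0 value columns were left unmapped.

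Genes kept by filterByExpr (19691 of 32046 with a count) were fitted with edgeR 4.0.16 (TMM factors, glmQLFit, glmQLFTest, genotype only, R 4.3.3) and p-values were adjusted by Benjamini-Hochberg over all of them, with a threshold of 0.05. On simulated counts of 19322 genes for this comparison the test recovered 76.5% of 200 genes changed 4-fold and called 23 unchanged genes. Those 23 were a larger share of the simulated calls than the threshold of 0.05 aims at. The changed genes were drawn above a minimum mean level that Acsm5 did not reach, so the recovery does not cover genes as scarce as that. Alternatives used DESeq2 1.42.0, limma 3.58.1, other scalings and filters, a replicate block and each library left out. Positions and exon lengths came from GENCODE M21 and RefSeq, both on GRCm38. The Acsm coding sequences were aligned with mafft 7.526 to find the conserved stretch. Identities of pairs came from global alignments with Biopython 1.88, as a percentage of the shorter sequence. RefSeq symbols matched 92.4% of tested genes. The members, lists and tests were chosen with earlier results of these data known. The text names all members and, of each related list, at most 3 called genes in each direction with a mean of at least 1 CPM. Eri2, Pdilt, Thumpd1, Lyrm1, Eci1, Ppara and Gapdh were added after their values were seen.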

Additional observations from a re-analysis of the deposited data

How the results depend on the processing

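None of the 8 tested members and 13 related genes named by rule changed direction under the alternatives that gave a value. Acsm2, Acsm3 and Acsm5 gave none with at least 10 counts in every library, and the genes named after their values were seen were not rerun. The single member called lower became 2 with DESeq2 (Acsm2 and Acsm3), 0 with at least 10 counts in every library, where Acsm2 could not be tested, 0 with the replicate block, and 0 to 1 when 1 library was left out. Members called higher stayed at 0 throughout. The 10 related genes called lower became 16 with DESeq2, 0 with the replicate block, 4 when a fold over 2 or under 0.5 was also required, and 0 to 12 when 1 library was left out. The 4 called higher became 2 with limma-voom, 0 with the replicate block, 2 with the fold limit, and 0 to 2 when 1 library was left out. For the 13 named related genes, 100 values under the alternatives stayed called and 69 did not. Over all genes, calls fell from 992 lower and 770 higher to 31 and 10 with the replicate block, to 19 and 4 without WT replicate 1, to 145 and 85 without WT replicate 2, to 40 and 16 without WT replicate 3 and to 342 and 220 without Ocln-KO replicate 2, and DESeq2 called 1643 and 1536. The cause was not tested. Libraries of the same number did not deviate together (correlations of −0.05, −0.03 and −0.003), and WT replicate 1 correlated best with Ocln-KO replicate 2 (0.13). The numbers were therefore not taken as pairs in the main test. Correlations over 3 libraries a genotype cannot exclude a pairing, and the paper describes 3 pairs of mice. With the numbers as pairs, which is the replicate block, 0 members and 0 related genes were called. With total counts as the only scaling the split was 674 lower and 1174 higher, and the log2 ratio of the Acsl sums was 0.15 in place of 0.06. On that scaling the Acsl sums no longer overlapped between the genotypes, whereas the values of Acsl3 and of Acsl4 did. The log2 ratio of the Acsm sums was −3.20, −3.45 to −3.02 with 1 library left out, and −1.83 without Acsm2. Low counts limit all of the Acsm genes, with 2 to 39 counts a library for Acsm3 and Acsm5, 0 to 6 for Acsm2 in Ocln-KO and 0 for Acsm1 and Acsm4.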
